A study of Mus musculus with 10 samples.

Results

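The 38 genes described here are used when cells divide: 14 belong to the start and machinery of DNA replication, 19 to mitosis, 3 are read from S phase through mitosis, and 2 are transcription factors that switch such genes on. They were chosen by symbol, and all 38 were found among the 41388 Ensembl genes of each count table. RNA came from whole ear skin of 10 C57Bl/6 mice, 1 library per mouse as far as the labels say, with 4 libraries labelled Littermate (genotype WT) and 6 labelled Experimental. Per the series text, MC903 (calipotriol, an analogue of vitamin D that brings on an itching, eczema-like inflammation) was put on the skin at 1 nM every day for 12 days in both groups, so there is no untreated skin to compare with. For the Experimental mice the genotype label reads NaV1.8+ Jak1F/F and the series text NaV1.8+ Il4raF/F, and which of these floxed genes was targeted is not settled here. NaV1.8 is a sodium channel of sensory neurons, so a deletion tied to it would be limited to such neurons. The labels used here name no age, sex, litter or batch, so p-values measure only the spread between these libraries.

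A cell that commits to division first licenses its replication origins. Cdc6 and Cdt1 load the MCM helicase, cyclin E (Ccne1) drives entry into S phase, and ribonucleotide reductase and thymidylate synthase supply nucleotides. Cyclin A and then cyclin B with Cdk1 carry the cell through G2 into mitosis, where Aurora and Polo kinases, kinesins and the spindle checkpoint act, and Cdc20 with Ube2c opens the way to anaphase. In skin, division takes place mainly in the basal layer of the epidermis and in hair follicles, and MC903 inflammation thickens the epidermis. RNA of these genes in whole skin reflects how many cells divide and how much RNA each carries, and in bulk RNA fewer dividing cells and less RNA per dividing cell cannot be told apart.

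Replication and mitosis genes are also known for different promoter elements, which is why 4 promoter windows are shown. Replication genes are classic targets of E2F factors. Mitosis genes often carry a cell cycle homology region (CHR), bound by the complex that holds Mybl2 or Foxm1, next to CCAAT boxes bound by NF-Y. The windows run from 250 bases before to 50 after the start of the gene in RefSeq (GRCm38.p6, the assembly that mm10 stands for), for the 2 replication and the 2 mitosis genes with the highest level per kilobase. Capitals mark a match on either strand to an E2F word (TTTCCCGC, TTTCGCGC, TTTGCCGC or TTTGGCGC), a CHR word (TTTGAA or TTTAAA) or CCAAT. Mcm5 is at chr8:75109259-75109558 (plus strand), Rrm1 at chr7:102441445-102441744 (plus), Cdc20 at chr4:118437294-118437593 (minus) and Ccnb2 at chr9:70421505-70421804 (minus).
Mcm5: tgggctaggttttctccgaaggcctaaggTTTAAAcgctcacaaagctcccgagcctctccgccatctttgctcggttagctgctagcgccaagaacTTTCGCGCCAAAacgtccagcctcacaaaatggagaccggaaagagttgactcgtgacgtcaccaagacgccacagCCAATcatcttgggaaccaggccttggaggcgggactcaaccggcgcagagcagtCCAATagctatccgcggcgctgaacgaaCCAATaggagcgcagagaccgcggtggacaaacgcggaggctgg
Rrm1: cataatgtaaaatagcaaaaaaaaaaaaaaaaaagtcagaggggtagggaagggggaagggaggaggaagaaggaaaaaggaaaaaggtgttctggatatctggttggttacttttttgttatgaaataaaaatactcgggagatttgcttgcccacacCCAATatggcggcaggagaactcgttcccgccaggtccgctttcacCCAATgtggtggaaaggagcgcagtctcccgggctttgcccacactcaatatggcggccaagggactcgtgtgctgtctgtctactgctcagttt
Cdc20: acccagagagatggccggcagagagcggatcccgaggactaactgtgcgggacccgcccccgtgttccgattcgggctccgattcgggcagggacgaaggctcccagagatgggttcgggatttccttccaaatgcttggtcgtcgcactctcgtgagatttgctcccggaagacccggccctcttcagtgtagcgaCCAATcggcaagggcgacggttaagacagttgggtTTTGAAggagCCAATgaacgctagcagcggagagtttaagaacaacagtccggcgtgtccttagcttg
Ccnb2: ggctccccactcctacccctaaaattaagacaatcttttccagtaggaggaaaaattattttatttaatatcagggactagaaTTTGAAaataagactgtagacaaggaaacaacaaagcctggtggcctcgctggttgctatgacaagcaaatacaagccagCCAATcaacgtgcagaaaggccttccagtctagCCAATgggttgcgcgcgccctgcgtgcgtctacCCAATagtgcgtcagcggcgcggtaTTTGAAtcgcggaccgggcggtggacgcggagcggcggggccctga

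The Mcm5 window held 2 overlapping E2F words, read from opposite strands, 3 CCAAT boxes and 1 CHR word, while that of Rrm1 held 2 CCAAT boxes and no E2F or CHR word. Positions below are of a word's first base, counted from the gene start. In Cdc20 a CHR word lies at -18, between 2 CCAAT boxes at -53 and -8. Ccnb2 had 3 CCAAT boxes at -87, -54 and -21, a CHR word at base 5 of the gene and another at -167. The RefSeq table held windows for 31 of the 38 genes, 33 windows in all because Mcm7 and Prc1 have 2 each, which for Prc1 cover nearly the same bases. A CHR word was present in 15 of 17 mitosis windows (88.2%) and 4 of 13 replication windows (30.8%), against 27.6% of all 32851 windows. An E2F word was present in 6 of 13 replication windows (46.2%), 1 of 17 mitosis windows (5.88%) and 2.26% of all windows. CCAAT boxes stood in 88.2% of mitosis and 69.2% of replication windows, against 37.4% of all. A CHR word together with CCAAT was found in 14 of 17 mitosis windows (82.4%) and 10.7% of all windows. These are letter matches, not measured binding.

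All 38 genes were well detected, with 72 to 11852 reads in a library, and all passed the filter on low counts. Levels are given as CPM, the read count scaled to a common library total, after normalization between libraries with TMM factors, and per kilobase (kb) of exon where genes are set against each other. Mki67, the proliferation antigen Ki-67, stood highest at a mean of 29.3 CPM per kb over the 10 libraries. The helicase subunit Mcm5 followed at 26.7, Rrm1, the large subunit of ribonucleotide reductase, at 23.8, topoisomerase Top2a at 23.7 and the anaphase activator Cdc20 at 19.1 CPM per kb. These neighbours in the order overlap between libraries, with Mki67 from 24.0 to 36.1, Mcm5 from 22.5 to 32.0, Rrm1 from 21.1 to 27.9 and Top2a from 18.8 to 28.5 CPM per kb. The lowest were the helicase loader Cdc6 at 1.51, the transcription factor Mybl2 at 1.69 and the helicase cofactor Gins2 at 1.89 CPM per kb. Of the exon bases of Gins2 67.3% overlap another gene, and how reads there were counted is not known here, so its place is uncertain. Replication genes had a median of 11.7 and mitosis genes of 7.48 CPM per kb, and 27 of the 38 lay above the median of all tested genes, 5.63 CPM per kb.

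Exons of 9 of the genes overlap those of another gene, and the sources used here do not give how the authors' counting treated such reads. The overlap exceeded 5% of exon bases in 5 of them: 67.3% of Gins2 with Gse1, 33.2% of Kif20a with Cdc23, 22.8% of Ube2c with the muscle troponin Tnnc2, 14.6% of Ccna2 with Exosc9 and 12.6% of Mcm7 with Ap4m1, Cops6 and 2 microRNA genes. Tnnc2 was counted at 0.596 to 3.88 CPM, while the muscle genes Mylpf and Tnnt3 stood at 170 to 357 and 371 to 771 CPM, so counts in that overlap are doubtful for both partners. In 12 genes more than 5% of the 50-base windows of their transcripts occur in a transcript of another gene, overlapping neighbours and pseudogenes included. Ccnb1 had 23.4% of its windows shared, with Ccnb1-ps, and Pcna 19.1%, with Pcna-ps2. Ccnb1-ps had no read in any library and Pcna-ps2 at most 4, and whether reads that match several places were counted for Ccnb1 and Pcna is not known here. Gse1, which shares most of the exon bases of Gins2, stood at a log2 ratio of Experimental over Littermate of -0.52 (edgeR, adjusted p = 0.0905), beside 0.11 for Gins2.

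**Figure D1:**
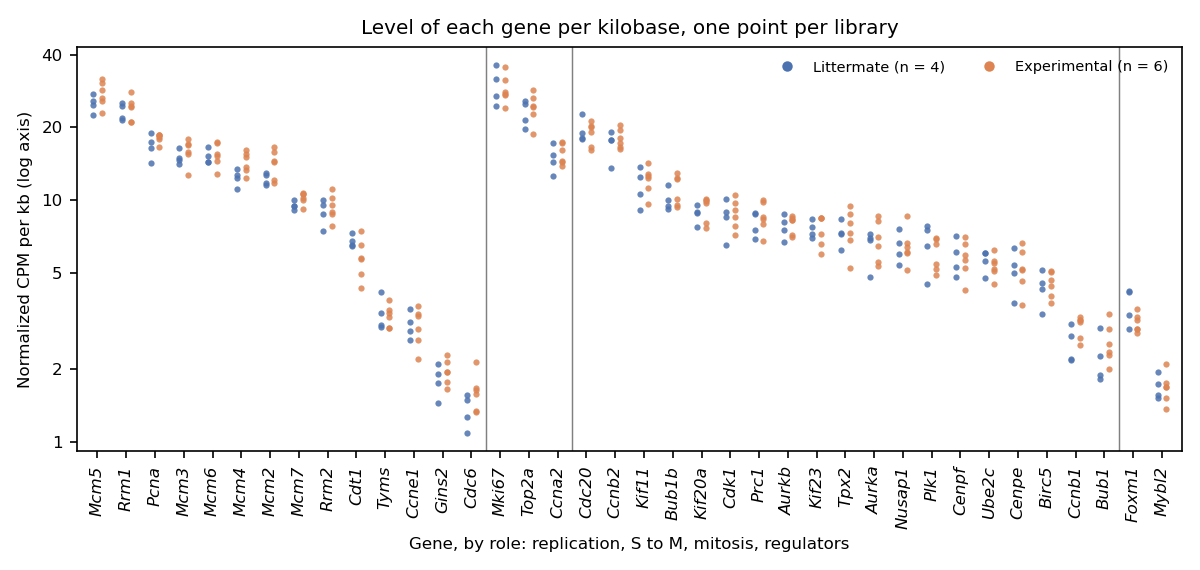
Normalized CPM per kilobase of exon (log axis) for each of the 38 genes, ordered by role and then by level, with 1 point per library (blue, Littermate, n = 4; orange, Experimental, n = 6). Mki67 stands highest at a mean of 29.3 and Cdc6 lowest at 1.51, and the points of both groups overlap in every gene.

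The main comparison asks whether cell division genes differ between Experimental and Littermate ears under the same treatment. None of the 38 genes passed the test over all 16830 tested genes (edgeR's quasi-likelihood test, Benjamini-Hochberg adjusted p under 0.05), against 0.0178% of all genes, which is 3 genes. The lowest adjusted p among them was 0.354 (edgeR), for Mcm4. An unadjusted p under 0.05 was reached by Mcm2 and Mcm4, both with higher means in Experimental ears. These 2 genes are 5.26% of the 38, against 11.8% of all tested genes in either direction, 3.65% higher and 8.1% lower. DESeq2, limma voom and voom with quality weights also called none of the 38, against 1.35%, 0.0178% and 0.357% of all tested genes. In no gene did all Experimental libraries lie outside the Littermate range. Of all tested genes 2.12% had groups that did not overlap, 0.761% with all Experimental libraries above and 1.35% with all below. For 38 genes, none is close to that share.

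The intervals of the main test on all 10 libraries limit how large a difference could have gone unseen in it. Intervals with a library left out are not given here. For all 38 genes the 95% interval of the log2 fold change, taken gene by gene, lay inside a change of 1.5 times in either direction. The interval reached lowest for Cdt1, to -0.53, and highest for Cdc6, to 0.56. The median log2 ratio of Experimental over Littermate was 0.07 over the 38 genes, 0.10 over the 14 replication genes and 0.05 over the 19 mitosis genes, beside -0.00 over all tested genes. Positive values were found in 27 of 38 genes, 11 of 14 replication genes and 14 of 19 mitosis genes, against 49.6% of all tested genes. Because these genes vary together from mouse to mouse, such counts are not independent observations. Among the 16 genes with no overlapping exon and at most 1% of windows shared, 11 were positive and the median was 0.05. Without Littermate 3 the median of the 38 was -0.00, and the mitosis median turned to -0.02, with 6 of 19 genes positive, whereas the replication median was 0.09 with 10 of 14 positive. With each library left out in turn the replication median ran from 0.07 to 0.15 and the mitosis median from -0.02 to 0.12.

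**Figure D2:**
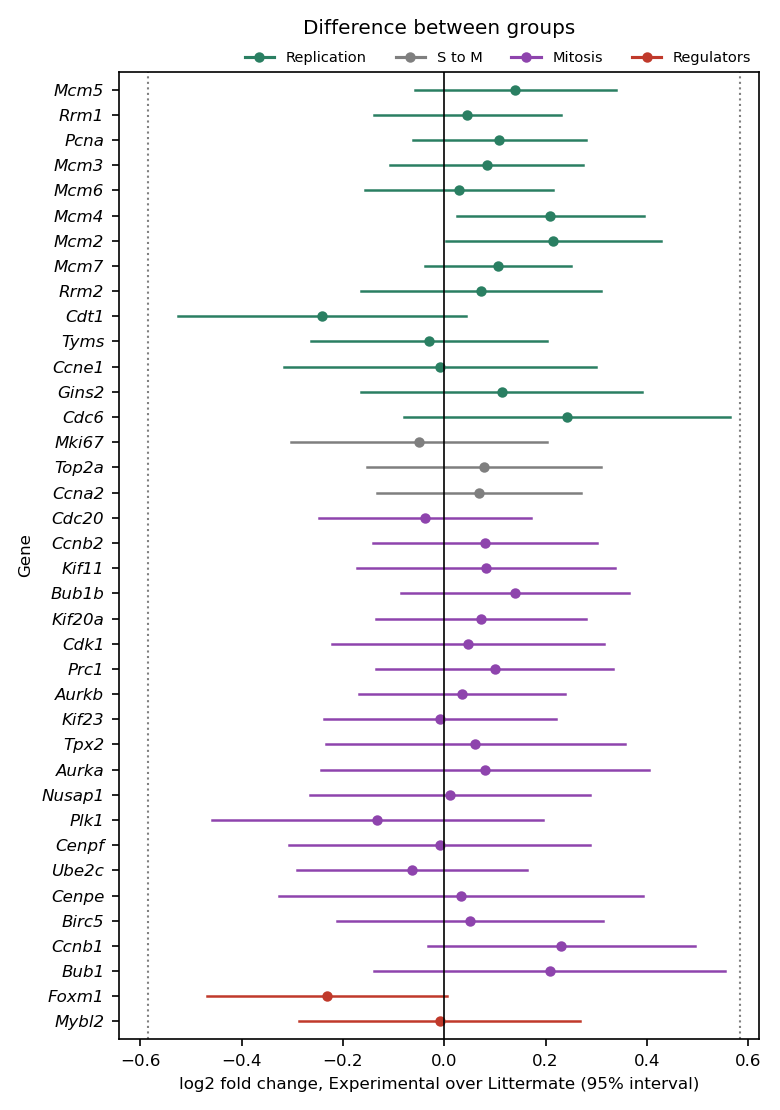
Log2 fold change of each gene, Experimental over Littermate, with its 95% interval from edgeR (points and bars, coloured by role; dotted lines mark 1.5 times in either direction). Intervals of 36 of the 38 genes cover 0, those of Mcm2 and Mcm4 lie above it, and all lie between the dotted lines.

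Among replication genes, the subunits of the MCM helicase that unwinds DNA all had positive log2 ratios, from 0.03 for Mcm6 to 0.22 for Mcm2, none of which passed. Mcm4 stood at 45.8, 40.1, 44.4 and 48.1 CPM in Littermates 1 to 4 and ran from 44.5 over a median of 51.8 to 58.0 CPM in Experimental ears. Its means were 44.6 ± 3.36 (SD, n = 4) and 51.6 ± 5.24 CPM (SD, n = 6), and the log2 ratio was 0.21, SE 0.09 (edgeR, adjusted p = 0.354). Of the 6 Experimental libraries 4 lay above all Littermates, while Experimental 3 and 4 lay within their range. Mcm2 measured 43.6, 39.7, 39.0 and 42.7 CPM in Littermates and from 39.6 over a median of 48.8 to 56.0 CPM in Experimental ears. The means of 41.2 ± 2.26 (SD, n = 4) and 47.9 ± 6.57 CPM (SD, n = 6) differed by 0.22 on the log2 scale, SE 0.10 (edgeR, adjusted p = 0.419). Again 4 Experimental libraries lay above every Littermate, and Experimental 3 and 6 did not. Mcm5 was the most abundant of the complex per kilobase, with 87.9, 94.4, 76.9 and 85 CPM in Littermates and 78.8 over a median of 94.0 to 109 CPM in Experimental ears. Its log2 ratio was 0.14 (edgeR, adjusted p = 0.591), and Experimental 3 lay near the lowest Littermate. The log2 ratio of Mcm3 was 0.08, that of Mcm7 0.11 with the narrowest range of any of the 38 genes (1.18 times from the lowest to the highest library), and that of Mcm6 0.03.

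Genes of nucleotide supply and the sliding clamp had log2 ratios between -0.03 and 0.11. Rrm1 was counted at 101, 97.9, 87.7 and 86.0 CPM in Littermates and between 84.2 and 112 CPM, median 97.9, in Experimental ears. Its log2 ratio was 0.05, interval -0.14 to 0.23 (edgeR, adjusted p = 0.880), and of the 6 Experimental libraries 2 lay above and 2 below all Littermates. Rrm2, the small subunit of the same enzyme, had a log2 ratio of 0.07, the thymidylate synthase Tyms at -0.03 and Pcna, the clamp that holds polymerases on DNA, at 0.11. Pcna had 34.3 to 45.6 CPM in Littermates and 39.9 to 44.8 CPM in Experimental ears, so every Experimental library lay inside the Littermate range.

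The licensing factors Cdc6 and Cdt1, picked out after their values were seen, had log2 ratios of opposite sign, and neither passed. Cdc6 was 8.2, 5.71, 7.81 and 6.61 CPM in Littermates and 6.97 over a median of 8.39 to 11.2 CPM in Experimental ears, a log2 ratio of 0.24 (edgeR, adjusted p = 0.561). Cdt1 was 14.3, 14.1, 14.8 and 16.0 CPM in Littermates and 9.51 over a median of 12.5 to 16.4 CPM in Experimental ears. Its log2 ratio of -0.24 was the most negative of the 38 (edgeR, adjusted p = 0.512). In 4 of 6 Experimental libraries Cdt1 lay below all Littermates, but Experimental 4 held the highest value of all 10. The log2 ratio of Gins2 was 0.11 and that of Ccne1 -0.01.

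Among mitosis genes, the most abundant per kilobase, Cdc20 and Ccnb2, differed between the groups by less than their SDs. Cdc20 measured 33.7, 35.6, 33.6 and 42.4 CPM in Littermates and 30.2 over a median of 36.6 to 39.8 CPM in Experimental ears, with a log2 ratio of -0.04, interval -0.25 to 0.17 (edgeR, adjusted p = 0.916). Ccnb2, a B-type cyclin, was 27.3, 29.6, 20.9 and 27.4 CPM in Littermates and 25.0 over a median of 27.3 to 31.5 CPM in Experimental ears, a log2 ratio of 0.08 (edgeR, adjusted p = 0.812). Ccnb1, the other B-type cyclin, had the lowest p of the mitosis genes. It stood at 9.22, 13.0, 9.3 and 11.6 CPM in Littermates and 10.6 over a median of 13.4 to 13.9 CPM in Experimental ears, a log2 ratio of 0.23, SE 0.12 (edgeR, adjusted p = 0.494). Experimental values exceeded all Littermates in 4 of 6 libraries. Bub1b, the checkpoint protein BubR1, was 49.3, 42.9, 39.5 and 40.6 CPM in Littermates and 40.0 over a median of 47.7 to 55.3 CPM in Experimental ears (log2 ratio 0.14, edgeR, adjusted p = 0.642).

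The other mitosis genes had log2 ratios from -0.13 for Plk1 to 0.21 for Bub1. Of the checkpoint and kinetochore genes, Bub1 had a log2 ratio of 0.21, the kinetochore motor Cenpe at 0.03 and Cenpf at -0.01. Cdk1, partner of the B-type cyclins, had a log2 ratio of 0.05, the mitotic kinases Aurka, Aurkb and Plk1 at 0.08, 0.04 and -0.13, and Birc5 (survivin), which works with Aurkb, at 0.05. The kinesins Kif11, Kif20a and Kif23 had log2 ratios of 0.08, 0.07 and -0.01, the spindle proteins Tpx2, Nusap1 and Prc1 at 0.06, 0.01 and 0.10, and the ubiquitin-conjugating enzyme Ube2c at -0.06. None of the 19 had an unadjusted p under 0.05 by edgeR.

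Mki67, Top2a and cyclin A2 (Ccna2) are read from S phase into mitosis. Mki67 was 364, 273, 248 and 320 CPM in Littermates and 242 over a median of 279 to 358 CPM in Experimental ears. The means of 302 ± 51.3 (SD, n = 4) and 291 ± 40.2 CPM (SD, n = 6) gave a log2 ratio of -0.05, interval -0.30 to 0.20 (edgeR, adjusted p = 0.908). Both groups span nearly the same levels, with Littermate 1 highest and Experimental 4 lowest of all. Top2a, which untangles replicated DNA, was 231, 225, 177 and 193 CPM in Littermates and 170 over a median of 220 to 257 CPM in Experimental ears (log2 ratio 0.08, edgeR, adjusted p = 0.826). Ccna2 was 60.5, 53.8, 44.4 and 50.5 CPM in Littermates and 48.8 over a median of 53.8 to 61.4 CPM in Experimental ears (log2 ratio 0.07, edgeR, adjusted p = 0.826). In Top2a 2 Experimental libraries lay above all Littermates and 1 below, and in Ccna2 2 lay above and none below.

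Of the 2 regulators, Foxm1, an activator of G2 and mitosis genes, was 23.0, 18.4, 16.2 and 23.1 CPM in Littermates and 15.5 over a median of 16.9 to 19.5 CPM in Experimental ears. Its log2 ratio of -0.23, SE 0.11, did not pass (edgeR, adjusted p = 0.437). Littermates 1 and 4 were above every Experimental library, whereas Littermate 3 lay among the lowest. Mybl2, which works in the same promoter complex earlier in the cycle, was 8.98, 8.05, 7.03 and 7.23 CPM in Littermates and 6.36 over a median of 7.84 to 9.77 CPM in Experimental ears, a log2 ratio of -0.01 (edgeR, adjusted p = 0.989).

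Mice of one group differed more among themselves in these genes than the group means did. From the lowest to the highest library the genes ranged 1.18 to 1.96 times, with a median of 1.5. For each library, the deviation of every gene from its own mean over the 10 libraries was taken on the log2 scale (prior count 2), and the median over a class of genes was used. Mitosis genes stood lowest in Experimental 4 (-0.28) and Littermate 3 (-0.27) and highest in Experimental 5 (0.23), Experimental 2 (0.17) and Littermate 1 (0.16). In Experimental 4 none of the 19 mitosis genes was above its own mean, and in Littermate 3 only Kif23 was. In Experimental 2 and Experimental 5 all 19 were, while in every library between 48.7% and 53.5% of all tested genes were above theirs. Each group thus held both high and low mice, from -0.27 to 0.16 among Littermates and from -0.28 to 0.23 among Experimental mice. Experimental 5 held the highest value in 14 of the 38 genes, where it did so for 12.0% of all tested genes. Littermate 3 and Experimental 4 held the lowest in 13 and 12 of the 38, against 6.72% and 10.7% of all tested genes.

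**Figure D3:**
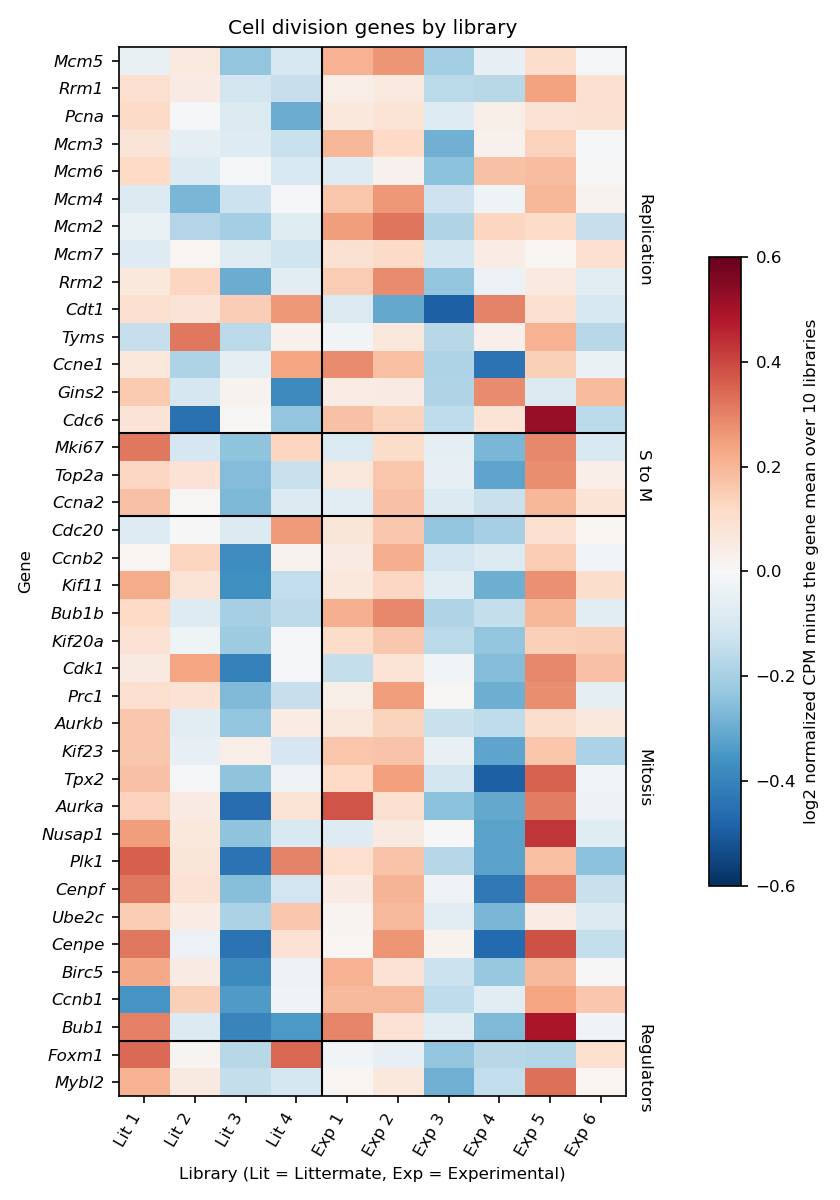
Deviation of each gene from its own mean over the 10 libraries, as log2 normalized CPM (red higher, blue lower), with genes in rows by role and libraries in columns. Blue columns run through the mitosis genes of Littermate 3 and Experimental 4, and red ones through Experimental 2 and Experimental 5, on both sides of the line between the groups.

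Replication genes followed part of this pattern. Their median deviation was high in Experimental 5 (0.13), Experimental 1 (0.12) and Experimental 2 (0.12) and lowest in Experimental 3 (-0.18), where none of the 14 was above its own mean. In Experimental 4, with mitosis genes at their lowest, the replication median was 0.03 and 9 of 14 replication genes were above their mean. Picked out after their values were seen, Cdt1, Gins2 and Mcm6 were high in that library at 16.4, 9.38 and 80.6 CPM, while Ccne1 was at its lowest of the 10, 5.87 CPM. The difference of replication and mitosis medians was 0.31 in Experimental 4 and 0.18 in Littermate 3, and between -0.11 and 0.05 in the other 8 libraries. Group means of this difference were -0.01 ± 0.13 in the 4 Littermates (SD) and 0.03 ± 0.15 in the 6 Experimental mice, so the groups differed by less than 1 SD. Replication medians averaged -0.03 ± 0.07 (SD, n = 4) against 0.04 ± 0.12 (SD, n = 6), and mitosis medians -0.02 ± 0.18 (SD, n = 4) and 0.01 ± 0.19 (SD, n = 6). Experimental 3 is also the deepest library, with 41935183 reads, but Experimental 2, with 36911819, stood at the opposite end, and the part of depth was not tested.

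**Figure D4:**
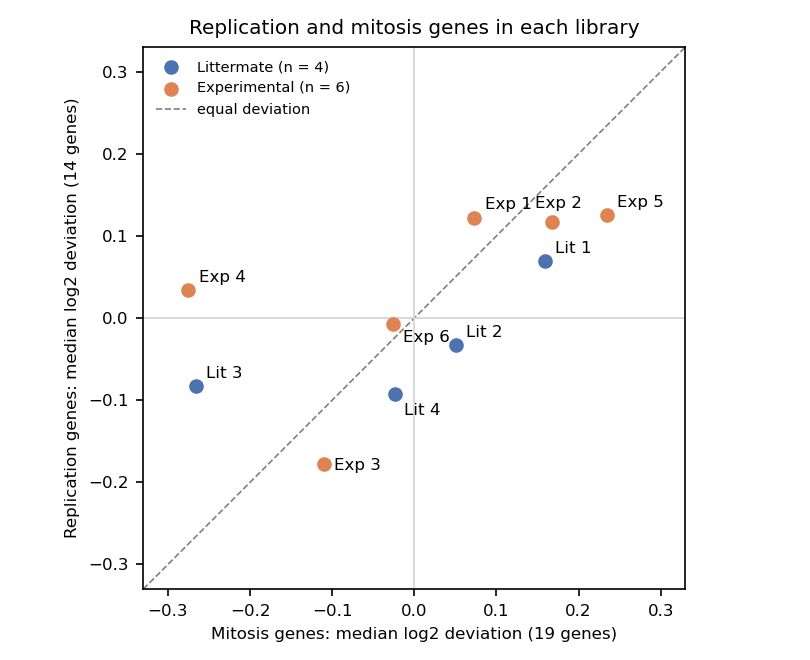
Median log2 deviation of the 14 replication genes (vertical axis) against that of the 19 mitosis genes (horizontal axis), 1 point per library (blue, Littermate, n = 4; orange, Experimental, n = 6), with a dashed line of equal deviation. Experimental 4 and Littermate 3 lie far to the left at -0.28 and -0.27 with replication medians of 0.03 and -0.08, and both groups are spread along the plot.

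The median spread within groups was higher over mitosis than over replication genes, a difference that was not tested. The coefficient of variation (CV, SD over mean) of normalized CPM had a median of 14.7% in Littermates and 14.1% in Experimental mice over mitosis genes, and 8.22% and 11.6% over replication genes. Tested genes in the same span of mean levels, 7.76 to 296 CPM, had medians of 10.7% and 8.63%. The checkpoint kinase Bub1 and Plk1 varied most among Littermates, with CVs of 23.2% and 22.8%, and Mcm7 least at 3.94%.

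Other genes of the cell cycle, from lists that hold none of the 38, followed the 38 in part. Over 32 further mitosis genes (among them kinetochore, condensin and separase genes) the median deviation was lowest in Experimental 4 (-0.19) and Littermate 3 (-0.17) and highest in Experimental 5 (0.19). Littermate 2 came next at 0.13, above Experimental 2 (0.12) and Littermate 1 (0.07), whereas over the 19 mitosis genes it stood at 0.05. In Experimental 5 and Experimental 2, 31 of the 32 were above their own mean, against 5 in Experimental 4 and 4 in Littermate 3. Over 22 further replication genes the median was highest in Experimental 5 (0.13) and lowest in Littermate 4 (-0.20), and it was 0.01 in Experimental 4. Between groups, none of the 86 tested genes of these lists passed (edgeR), 4 were higher and 4 lower at an unadjusted p under 0.05, and 1 was called by DESeq2. These are 9.3% of the 86 at that p, against 11.8% of all tested genes, and 1.16% by DESeq2, against 1.35% of all. The further replication genes had a median log2 ratio of 0.12 with 18 of 22 positive, against 49.6% of all tested genes, and with each library left out the median ran from 0.08 to 0.18 and the count from 16 to 21. It was 0.18 without Littermate 2. These genes too vary together between mice. Among them the clamp loader subunit Rfc3 had a log2 ratio of 0.22 (edgeR, adjusted p = 0.405). The further mitosis genes had a median log2 ratio of 0.02 with 22 of 32 positive, which became -0.03 with 13 positive without Littermate 3, -0.00 with 16 positive without Experimental 5 and 0.08 with 26 positive without Littermate 1. Among them the cyclin Ccnf stood at a log2 ratio of -0.18 and separase (Espl1) at -0.15. Cyclins and kinases of G1 had a median log2 ratio of 0.04, with Ccnd2 at 0.11 and Ccnd3 at -0.16.

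Cdkn1a, which encodes the cyclin-dependent kinase inhibitor p21, was the one gene of these lists whose groups did not overlap (1 of 86, 1.16%, against 1.35% of all tested genes in that direction). It stood at 85.9, 78.1, 84.6 and 92.0 CPM in Littermates and 59.2 over a median of 68.3 to 71.5 CPM in Experimental ears. All 6 Experimental libraries were below all 4 Littermates. The means of 85.2 ± 5.67 (SD, n = 4) and 67.0 ± 4.61 CPM (SD, n = 6) gave a log2 ratio of -0.35, SE 0.07, short of the threshold (edgeR, adjusted p = 0.0833). Its adjusted p ran from 0.0047 with DESeq2 to 0.874 with the level of Y-linked genes as a covariate, and passed in 3 of 22 alternatives (DESeq2, without Littermate 2, and without Littermate 2 and Experimental 6). With that covariate its log2 ratio was -0.32, and all genes at an unadjusted p under 0.05 (edgeR) fell from 1978 to 905. The 4 Y-linked genes were each detected in every library. They summed to 228 to 301 CPM in Littermates and 282 to 339 CPM in Experimental ears, so no library lacked Y-linked RNA. All 4 had positive log2 ratios, so the covariate is not independent of group. Without Littermate 2 Cdkn1a passed at a log2 ratio of -0.39, and so did Fzr1, an activator of the anaphase-promoting complex, at -0.32. In that setting 342 genes, 2.0% of all tested genes, passed. Fzr1 stood at 63.1 ± 7.86 (SD, n = 4) against 53.4 ± 2.77 CPM (SD, n = 6), with a log2 ratio of -0.24 (edgeR, adjusted p = 0.260). Among E2F and retinoblastoma family genes, with a median log2 ratio of -0.01, the repressor E2f8 stood at -0.45 (edgeR, adjusted p = 0.229) and Lin54, a subunit of the complex that binds CHR elements, at 0.23 (edgeR, adjusted p = 0.30). E2f8 passed in 1 of 22 alternatives, without Littermate 2 and Experimental 6, where 3.35% of all tested genes passed.

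The libraries as a whole held 11520348 to 41935183 counted reads, with the 4 Littermates between 12865459 and 14324433. The keratinocyte genes Krt5, Krt14, Krt1 and Krt10 were abundant in every library, with Krt5 at 1780 to 2730 and Krt14 at 12900 to 19500 CPM. Summed levels of 13 lists of marker genes overlapped between the groups in all 13, and 96 of their 100 genes were detected in every library, the exceptions being Krt35, Shh, Ms4a1 and Mzb1. Gene by gene, none of the marker genes passed (edgeR). Of 9 macrophage markers 8 had negative log2 ratios, 3 of them at an unadjusted p under 0.05 and 1 with groups that did not overlap. Among all tested genes 8.1% were lower at that p, and 1.35% had all Experimental libraries below all Littermates. Negative log2 ratios were also found in 8 of 9 skeletal muscle (3 at that p), 6 of 7 endothelial (2) and 5 of 6 melanocyte markers (2). The muscle markers include Tnnc2 (log2 ratio -1.48, edgeR, adjusted p = 0.107), whose counts are doubtful because its exons overlap those of Ube2c. In the other direction, 2 of 7 dendritic and 1 of 9 T cell markers were higher at that p, against 3.65% of all tested genes. In 1 of the dendritic markers all Experimental libraries lay above all Littermates, as in 0.761% of all tested genes. Of 7 fibroblast markers 5 had negative log2 ratios, 3 at an unadjusted p under 0.05, and 7 of 7 sebocyte markers had positive ones, none at that p. Of 9 basal keratinocyte markers 3 had negative log2 ratios, 1 at an unadjusted p under 0.05. Of 7 suprabasal keratinocyte markers 5 did, 1 at that p, and none of either list was higher at that p. Basal keratinocyte markers summed to 22100 to 24700 CPM in Littermates and 19000 to 25200 CPM in Experimental mice, lowest in Experimental 4. Skeletal muscle markers ran from 11200 to 24400 CPM in Littermates, highest in Littermate 3, and from 12600 to 18200 CPM in Experimental mice, with 14000 in Experimental 4. Markers of T cells, another dividing population, summed to 149 to 199 CPM and 139 to 169 CPM, lowest in Experimental 3 and highest in Littermate 1. Hair matrix markers summed to 41.2 to 57.9 CPM and 33.3 to 52.9 CPM. Gene by gene, 4 of the 7 tested hair matrix markers had positive and 3 negative log2 ratios, with a median of 0.46. At an unadjusted p under 0.05 (edgeR) 2 of them were higher and 2 lower, against 3.65% and 8.1% of all tested genes. The part of these cell types in the differences between libraries was not tested.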

How the data were processed

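RNA from whole ear skin of 10 mice was sequenced, 1 library per mouse. Per the labels' protocols, ribosomal RNA was removed by hybridization, cDNA synthesis started from random hexamers, and each library gave single reads of 50 bases, with no strand marking described. The build mm10 and the tools featureCounts 1.4.5, Subread and STAR (2.0.4b) are named, per the submitters' processing notes, without their roles. The sources used here do not give the annotation release, the strand setting or the treatment of multi-mapping reads. The read counts per gene are those the authors deposited. The deposited CPM values equal the count over the library total, and the deposited RPKM values that CPM per kilobase; neither entered a test. Symbols matched 97.3% of gene identifiers.

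Group was the single term of a robust, two-sided quasi-likelihood test on the 10 libraries (edgeR 4.0.16), after filterByExpr and with TMM factors, and p-values were adjusted over 16830 genes. The 95% interval uses the standard error, the size of the log2 fold change over the square root of F. On simulated counts for this comparison (16681 genes), 61.2% of genes changed by 1.5 times and 94.8% of those changed by 2 times were recovered, with 8 false calls among 160. The simulation gave every gene the same biological coefficient of variation, 12.8%, and drew genes independently of each other. The 38 genes had CVs up to 23.2% and vary together between mice, so these shares may not hold for them. Alternatives were other size factors and filters, DESeq2 1.42.0, limma 3.58.1 voom, a replicate block, a Y-linked covariate, GC and length correction, and libraries left out. The genes and lists were chosen with earlier results of these data known. Values by library are given for the 2 highest and the 2 lowest-p genes of each class, the S-to-M genes and the regulators, and from each further list the 2 with the lowest p are named, except 1 gene that is not reported here. Of the list symbols, 1 matched no gene and 1 went by an older symbol. At these depths 3 counts were worth 0.0715 to 0.26 CPM.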

Additional observations from a re-analysis of the deposited data

Results flagged for a closer look

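In groups of 4 to 6 libraries, a value was taken up here when its gap to the nearest other value exceeded Dixon's 95% limit. Of 84 such groups of values 3 met it, where chance alone gives about 1 in 20. In Littermate 3 Aurka stood low at 12.2 CPM, below the 17.3 to 18.4 CPM of its group. In Experimental 3 Pcna stood low at 39.9 CPM, below the 43.2 to 44.8 CPM of its group. The replication minus mitosis difference was 0.183 in Littermate 3, against -0.0894 to -0.0696 in the other Littermates. No test of a cause was made.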

How the results depend on the processing

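No gene of the 38 passed in any of the 22 alternatives, where the lowest adjusted p ran from 0.190 to 0.874. Same-numbered mice correlated at -0.02 to 0.09 after group means were removed, and only those numbered 3 were each other's best match. Whether the numbers mark a shared litter or batch is not known here. With the replicate block 67 genes of all passed, and Cdk1 turned to -0.049, Cenpe to -0.016, Mcm6 to -0.016, Nusap1 to -0.079, Rrm1 to -0.032 and Tpx2 to -0.023. The number of all genes passing, 3 in the main test, was 78 with no filter, 227 with DESeq2, 60 with quality weights, 565 without Littermate 2 and Experimental 6, and 3 to 342 with 1 library left out (342 without Littermate 2, 28 without Experimental 6, 8 without Littermate 3). Further cell cycle genes passing numbered 1 with DESeq2, 3 without Littermate 2 and Experimental 6 and 0 to 2 with 1 library left out. The 2 were called without Littermate 2. Of all tested genes 1.35% passed with DESeq2, 3.35% without Littermate 2 and Experimental 6 and 2.0% without Littermate 2. The count of the 38 at an unadjusted p under 0.05, 2 in the main test, was 1 with the stricter filter, 4 with quality weights and 0 to 5 with 1 library left out: 0 without Experimental 1, 2 or 5, 1 without Littermate 3, 4 without Littermate 1 and 5 without Experimental 3. Both in the main test were higher in Experimental ears. With voom, the replicate block, without Littermate 2 or without Experimental 4, 1 was higher and 1 lower. Quality weights gave 3 higher and 1 lower, and the 1 without Littermate 3 was lower. Among all tested genes that p was reached by 1978 of 16830 in the main test and 2283 of 16830 with quality weights. The same p was reached by 1712 of 17082 without Littermate 1, 1682 of 16703 without Experimental 3 and 1935 of 16999 without Littermate 3. With the stricter filter 1944 of 16047 reached it. Without Experimental 1, 2 or 5 the counts were 1816 of 16707, 1529 of 16718 and 1586 of 16871. Of the 38 genes 17 kept their sign in all 22 alternatives and 21 did not, none of them called. The cause of these changes was not tested.

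Values that changed sign were, with library totals only, Ccne1 0.0094, Cenpf 0.0067, Kif23 0.0089 and Mybl2 0.0082. With upper-quartile factors the same 4 stood at 0.0097, 0.0073, 0.009 and 0.0079, and with no filter at 0.0046, 0.0026, 0.0039 and 0.0024. With GC and length correction Cenpf was 0.0037, Mybl2 0.081 and Nusap1 -0.051. With the Y-linked covariate Ccne1 was 0.21, Cdc20 0.11, Cdk1 -0.0496, Kif23 0.0046, Nusap1 -0.11, Plk1 0.036, Rrm1 -0.014 and Ube2c 0.039. With quality weights Ccne1 was 0.038, Cdc20 0.025, Cenpf 0.046, Kif23 0.012, Tyms 0.0401 and Ube2c 0.016. Without Littermate 2 and Experimental 6 Cenpf was 0.045, Kif23 0.013, Mybl2 0.0059 and Tyms 0.12. With each library left out, Aurka ran from -0.034 to 0.15, Aurkb from -0.025 to 0.11, Birc5 from -0.048 to 0.15, Ccnb2 from -0.011 to 0.14, Ccne1 from -0.071 to 0.081, Cdc20 from -0.072 to 0.055, Cdk1 from -0.0603 to 0.14, Cenpe from -0.086 to 0.16, Cenpf from -0.087 to 0.11 and Kif11 from -0.0082 to 0.19. In the same way Kif23 ran from -0.041 to 0.051, Mcm6 from -0.0072 to 0.088, Mki67 from -0.13 to 0.061, Mybl2 from -0.074 to 0.071, Nusap1 from -0.08 to 0.11, Rrm2 from -0.0015 to 0.13, Tpx2 from -0.0051 to 0.15 and Tyms from -0.081 to 0.082.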
